A study of Mus musculus with 6 samples.

Results

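Lipid-associated macrophage genes are a set of 8 genes that mark fat-handling macrophages in many tissues: Spp1, Trem2, Gpnmb, Fabp5, Lpl, Apoe, Cd9 and Lgals3. They were taken by symbol from the 33696 features of the deposited count matrices, and each symbol matched 1 feature. The genes were described across the monocyte and macrophage states and the other lineages of 5 libraries of immune cells from mouse mammary tumours.

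Macrophages take up lipoproteins, dead cells and membrane debris, store the lipid in droplets or break it down in lysosomes, and export cholesterol on apolipoproteins. Trem2 is a surface receptor for lipids and lipoproteins that signals through the adaptor Tyrobp. Cells that engage it in fat, atherosclerotic plaque, damaged brain and tumours are known for raised levels of lipid-handling and lysosomal genes, and tumour macrophages with high Spp1 or Trem2 are often described as a subset of their own.

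The study is on triple negative breast cancer and, by its title, on inhibition of MERTK, a receptor tyrosine kinase with which macrophages take up dying cells, together with cyclophosphamide, an alkylating chemotherapy drug. Live immune cells were sorted from tumours by their surface CD45, and their transcripts were read from the 3' end in droplets. The treatment labels are VC, MRX, CTX, Combined, ctxd18t and combod18t, with 1 library each. The labels do not spell them out, and give no strain, tumour line, age or number of mice, so the libraries are called by their labels. The protocol, which has the same text on every sample, speaks of day 7 mice treated 3 hours before harvest. The names ctxd18t and combod18t hold d18, read here as day 18. VC was not analysed here beyond its 3656 barcodes.

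The total of UMIs (unique molecular identifiers, 1 for each captured transcript) ranged from 39820290 to 100733879 per library, and 3826 to 8520 cells per library were kept after filtering. With 1 library per label there was no replicate spread, and no test was run. Intervals are at 95% and cover counting error only. The MRX, CTX, Combined and VC libraries shared 0 barcodes with each other. The ctxd18t library shared 21 barcodes with Combined and 0 with CTX, and combod18t shared 34 with CTX and 0 with Combined. In this chemistry each sample of a chip has a barcode set of its own, so ctxd18t carried the set of Combined and combod18t that of CTX. A different order of loading at day 18 and an exchange of these labels cannot be told apart from the files, and the signs of the day 18 comparison would turn in the latter case.

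Of the 25653 kept cells, 8035 fell into 6 clusters of the monocyte-macrophage-like class, from 271 cells in combod18t to 4366 in CTX. All 15 markers of that class were seen in at least 10% of its cells in each library. The members were left out of the genes used for clustering. Cluster 0 was inflammatory macrophage-like, led by Ly6i, Cxcl9 and Inhba. Clusters 3 and 15 were C1q-high macrophage-like: cluster 3 was led by C1qa, C1qc and C1qb, which encode the complement C1q chains, and cluster 15 by Ccl8, Hbb-bs, Pf4 and Folr2. Cluster 5 was classical monocyte-like, led by Plcb1, Vcan and F13a1. Cluster 16, led by the interferon-induced genes Rsad2, Ifit2 and Mx1, and cluster 20, with Mrc1 and Hspa1a among its leading genes, met no state's marker rule and are called by their leading genes. Lpl stood among the 10 leading genes of cluster 0, and Apoe among those of cluster 3.

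The promoters of members that were high in the same or in different clusters are shown from RefSeq on build GRCm38.p6, which is not the build of the counts. The table held 9 promoters for 6 of the 8 members; Fabp5 and Lpl were not among them. Each sequence runs 5′ to 3′ on the gene's strand from 250 bases before the start. Searched on both strands were TGANTCA (AP-1), CACGTG (E-box) and AGGAAGT (PU.1, the factor that specifies myeloid cells), which 7.81%, 7.15% and 9.35% of all 32851 promoters of the table hold. Capitals mark the only matches in the 9 sequences. Spp1 was highest in cluster 20 where that cluster could be measured, and so was Gpnmb in MRX and ctxd18t. The first Spp1 start lies at chr5:104434861-104435160, plus strand, with a PU.1 match whose first base is at -112 from the start. Gpnmb lies at chr6:49036268-49036567, plus strand, with an AP-1 match at 8. Trem2 and Apoe were highest in cluster 15. Trem2 lies at chr17:48346151-48346450, plus strand, with an AP-1 match at -9, and the first Apoe start at chr7:19699139-19699438, minus strand, without a match.
Spp1: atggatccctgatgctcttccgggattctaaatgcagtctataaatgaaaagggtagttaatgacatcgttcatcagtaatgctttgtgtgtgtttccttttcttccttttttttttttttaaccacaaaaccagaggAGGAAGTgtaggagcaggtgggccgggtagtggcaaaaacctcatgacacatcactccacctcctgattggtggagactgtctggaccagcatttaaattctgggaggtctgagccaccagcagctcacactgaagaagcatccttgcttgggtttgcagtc
Gpnmb: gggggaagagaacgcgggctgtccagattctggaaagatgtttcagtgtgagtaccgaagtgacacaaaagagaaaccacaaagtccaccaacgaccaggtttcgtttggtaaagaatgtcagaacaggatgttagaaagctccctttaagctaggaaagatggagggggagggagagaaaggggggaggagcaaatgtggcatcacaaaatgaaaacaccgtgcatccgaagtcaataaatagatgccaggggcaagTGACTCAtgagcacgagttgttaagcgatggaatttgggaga
Trem2: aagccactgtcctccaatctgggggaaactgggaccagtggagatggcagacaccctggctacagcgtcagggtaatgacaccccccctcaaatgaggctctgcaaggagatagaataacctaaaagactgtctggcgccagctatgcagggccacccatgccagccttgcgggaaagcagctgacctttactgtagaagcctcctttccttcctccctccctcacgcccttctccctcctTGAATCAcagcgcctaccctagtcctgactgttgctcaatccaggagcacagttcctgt
Apoe: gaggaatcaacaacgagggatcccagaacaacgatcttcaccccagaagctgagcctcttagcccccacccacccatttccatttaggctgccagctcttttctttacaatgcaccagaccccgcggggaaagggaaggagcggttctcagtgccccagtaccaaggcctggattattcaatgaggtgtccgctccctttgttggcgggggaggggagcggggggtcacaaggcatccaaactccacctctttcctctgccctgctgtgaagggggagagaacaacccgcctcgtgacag
The E-box letters were in 0 of the 9 sequences. A match is a run of letters only, and factor binding was not measured in these libraries.

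In MRX, CTX and Combined, Apoe and Trem2 were the members with the largest part of their counts in the monocyte-macrophage-like class; in ctxd18t this was Gpnmb, at 85.9%, and in combod18t Lpl, at 45.1%. In combod18t the mixed clusters left out of the class held more, with 47.6% of the Lpl counts, 46.99% of the Trem2 counts and 50.4% of the Apoe counts, on 10.8% of all UMIs. That class held 94.6% of all Trem2 counts for MRX, 82.1% for CTX, 77.2% for Combined, 75.0% for ctxd18t and 44.1% for combod18t, against 33.3%, 55.2%, 34.9%, 25.4% and 8.06% of all UMIs in the same order. Its part of the Apoe counts ran from 38.5% in combod18t to 94.1% in MRX. Cd9 and Fabp5 lay at the other end: the class held 3.79% to 39.9% of the Cd9 counts and 3.11% to 30.8% of the Fabp5 counts, in each library less than its part of the UMIs.

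Cd9, a tetraspanin that organises membrane proteins, had its highest levels in neutrophil-like and epithelial-like cells. Levels are given as CPM, the summed counts of a class scaled to 1000000 UMIs, and are compared within a gene only. The Cd9 level of neutrophil-like cells was 1475 CPM for MRX, 1231 for CTX, 1083 for Combined, 1506 for ctxd18t and 1407 for combod18t. The monocyte-macrophage-like cells of the same libraries had 66.3, 76.6, 89.7, 66.6 and 68.3 CPM. The ranges did not overlap. Epithelial-like cells had 1300.3 CPM in CTX, above the neutrophil-like cells there, 1149 in ctxd18t and 1134 in combod18t. Of all Cd9 counts, neutrophil-like cells held 32.9% to 41.1% in MRX, ctxd18t and combod18t but 5.17% in CTX and 6.31% in Combined, where NK-like cells held 42.9%. With cells thinned to 1000 random UMIs each, 62.7% to 73.9% of neutrophil-like cells and 4.59% to 7.46% of monocyte-macrophage-like cells had a Cd9 UMI, and 0.157% to 1.15% of B-lineage cells, which served as the background class. NK-like cells, at 197.9 to 259.8 CPM, and conventional dendritic-like cells, at 209 to 311 CPM, also lay above the monocyte-macrophage-like class.

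Spp1, which encodes the secreted integrin and CD44 ligand osteopontin, was spread over several lineages. Neutrophil-like cells had 559.97 CPM for MRX, 752 for CTX, 698 for Combined, 663 for ctxd18t and 868 for combod18t, and were above the monocyte-macrophage-like class in 4 of the 5 libraries. NK-like cells had 433 CPM for MRX, 772 for CTX, 598 for Combined, 163 for ctxd18t and 205 for combod18t. In CTX and Combined this was more than the 368 and 262 CPM of the monocyte-macrophage-like cells. A T-like cluster led by Ccl1 and Penk had 404 CPM in CTX, and the 21 stromal-like cells of ctxd18t, the 1 library with at least 20 of them, had 3311. The B-lineage cells stayed at 2.81 to 9.23 CPM.

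Fabp5, an intracellular carrier of fatty acids, was, among the named classes, highest in the epithelial-like cells that passed the CD45 gate. These had 11798 CPM in CTX, 8683 in ctxd18t and 5385 in combod18t, and the monocyte-macrophage-like class had 74.6 to 304 CPM over the 5 libraries. Fabp5 was among the leading genes of the epithelial-like cluster. Epithelial marker genes summed to 7.5 to 40.6 CPM in the monocyte-macrophage-like class, highest in ctxd18t, where Fabp5 was highest as well; their part in the Fabp5 level was not tested.

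Lgals3, which encodes the sugar-binding lectin galectin-3, was high in all myeloid classes: 871 to 1248 CPM in monocyte-macrophage-like, 477 to 1206 in conventional dendritic-like and 272 to 774 in neutrophil-like cells. NK-like cells had 269 to 528 CPM, and B-lineage cells 12.6 to 27.8. Lpl encodes the secreted lipase that frees fatty acids from lipoprotein triglycerides. Among classes of at least 20 cells, a pair shared Lpl in CTX and Combined. Conventional dendritic-like cells had 150.2 CPM of it in CTX and 142 in Combined but 4.99 for MRX, 8.81 for ctxd18t and 3.24 for combod18t. The monocyte-macrophage-like cells of CTX and Combined were likewise above those of the other 3 libraries. The 21 stromal-like cells of ctxd18t had 113 CPM of Lpl, and the monocyte-macrophage-like cells there 17.98. In CTX and Combined the stromal-like cells, fewer than 20, held 0.466% and 0.837% of the Lpl counts. They held 0.191% and 0.102% of all UMIs. Gpnmb, a transmembrane glycoprotein of endosomes and lysosomes, was near the detection limit outside the monocyte-macrophage-like class, at 0 to 6.10 CPM in every other named class. In pDC-like cells it was at 2.77 CPM in CTX and 3.75 in Combined, from 4 and 7 counts, above the 0.985 and 1.22 CPM of the monocyte-macrophage-like cells.

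Apoe, the apolipoprotein onto which macrophages load cholesterol, had a level in B-lineage cells above those of the other lymphoid classes. These cells had 439 CPM for MRX, 257 for CTX, 237 for Combined, 319.9 for ctxd18t and 478 for combod18t. T-like cells had 49.99 to 86.3 CPM and NK-like cells 5.35 to 93.4. At 1000 UMIs per cell, 16.5% to 31.4% of B-lineage cells had an Apoe UMI and 1.92% to 3.6% of NK-like cells. Apoe counts per C1qa count, a C1q chain of macrophages, were 3.58 to 70.4 in B-lineage cells and 1.77 to 4.75 in the monocyte-macrophage-like cells. In each library the ratio was higher in the B-lineage cells than in the monocyte-macrophage-like cells. The same held for pDC-like cells, at 3.14 to 14.5, on 4 to 44 C1qa counts. In T-like cells, at 1.19 to 2.03, and NK-like cells, at 0.625 to 2.71, the ratio was lower in each library. The B-lineage cells of combod18t, with the highest Apoe level of that class, had 134 CPM of C1qa. Those of the other libraries had 4.55 to 29.2 CPM of C1qa. The part of transcripts from other cells in these levels was not tested.

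**Figure D1:**
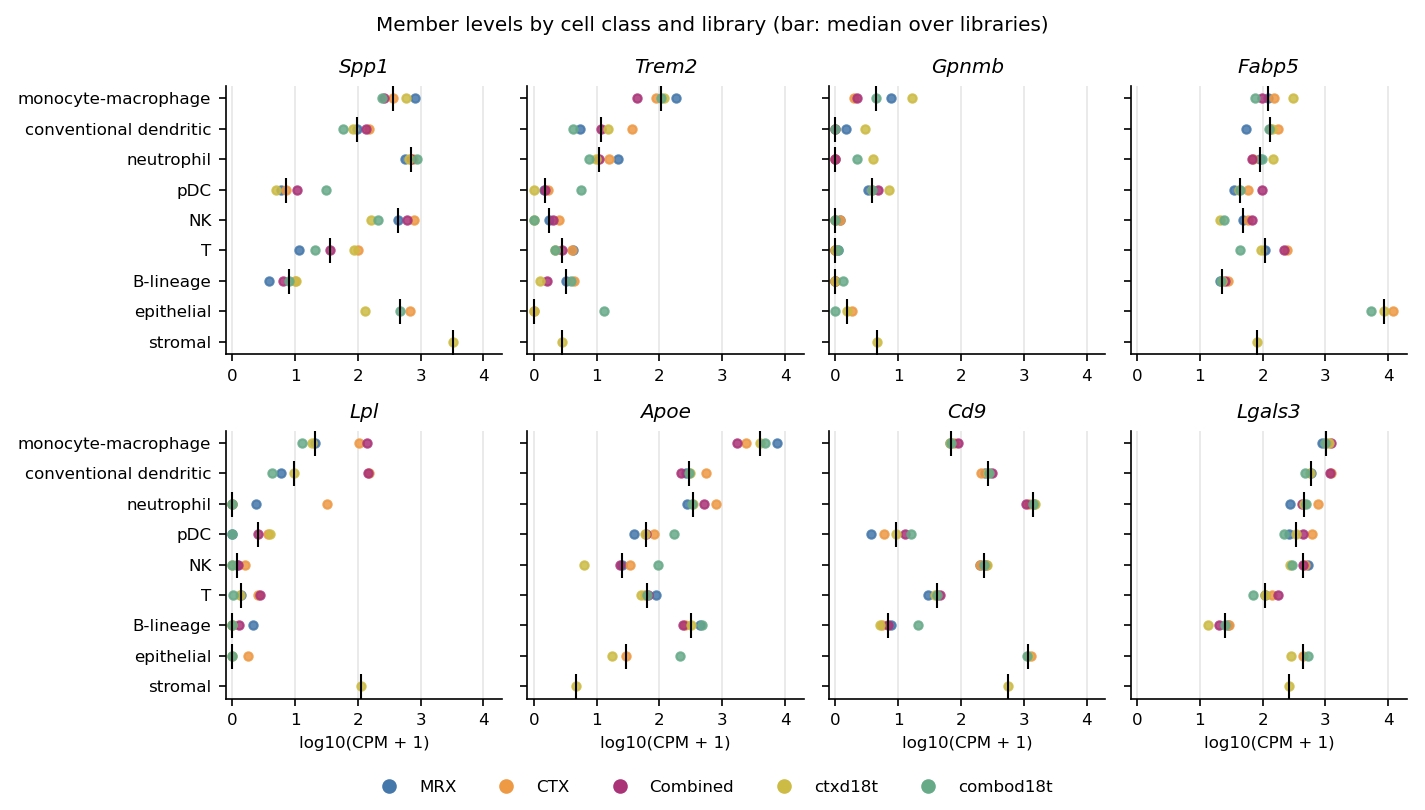
Level of each member as log10(CPM + 1) (x axis) in 9 cell classes (y axis), with 1 point per library of at least 20 cells in the class and a bar at the median over libraries. Trem2 and Apoe were highest in monocyte-macrophage-like cells, Cd9 in neutrophil-like and epithelial-like cells (1083 to 1506 CPM), and Fabp5 in epithelial-like cells.

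Within the monocyte-macrophage-like class the 8 genes did not peak in the same state. Cluster 20 had the highest Spp1, Fabp5, Lgals3 and Cd9 in each of the 3 libraries in which it held at least 20 cells. Its Spp1 level was 3507 CPM in MRX, 1594 in CTX and 1358 in ctxd18t, and the next cluster, cluster 16 in each, had 1277, 583 and 883. The Fabp5 level of cluster 20 was 683, 980.4 and 961 CPM in the same order, and the next cluster had 138, 319.7 and 184. For Lgals3 it was 2829, 1863 and 2116 CPM against 1031, 1295 and 1229 in the next. All of these intervals were apart. Cd9 was at 365, 142 and 114 CPM in cluster 20; the intervals were apart from the next cluster in MRX and CTX and overlapped in ctxd18t. Gpnmb was at 48.2 CPM there in MRX, apart from the next cluster, at 29.97 in ctxd18t, from 75 counts in 15 cells, with intervals that overlapped those of cluster 3, where 62 counts came from 2 cells, and at 2.61 in CTX, from few counts.

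Trem2 and Apoe were highest in cluster 15, a C1q-high cluster, in place of cluster 20. Trem2 in cluster 15 was 348 CPM for MRX, 280.4 for CTX, 186 for Combined, 255 for ctxd18t and 215 for combod18t, the highest in each library, with intervals apart from the next cluster. The next cluster for Trem2 was cluster 3 in MRX, Combined and combod18t, but cluster 20 in CTX, at 172 CPM against 120.4 in cluster 3, and in ctxd18t, at 119 against 104. Its lowest cluster was cluster 0 in the 4 libraries with at least 20 cells there, at 24.8 to 65.3 CPM. Apoe in cluster 15 was 11589.6 CPM for MRX, 6293 for CTX, 6589 for Combined, 8823 for ctxd18t and 10136 for combod18t. Cluster 3 came next in each library, and the intervals were apart in all 5. When the members were used in clustering, Apoe was highest in a C1q-led cluster in each library, at 4437 to 10642 CPM. Trem2 was highest in the same cluster in all libraries but CTX, at 113.6 to 260 CPM. Cluster 3 cells made up 61.2% to 73.1% of that cluster and the rest came from other clusters. This setting therefore does not place either peak in cluster 3 itself. In combod18t the median UMI count of cluster 15 was 3052 and haemoglobin and other erythroid markers summed to 5292 CPM, against 7041 to 10411 UMIs and 0 to 3.2 CPM in the other libraries; their part in the levels of this cluster was not tested.

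Lpl followed neither of these patterns. It was highest in cluster 0, the inflammatory macrophage-like cluster, in CTX with 152 CPM and in Combined with 168, and the intervals were apart from the next cluster. Cluster 20 had the lowest Lpl level in MRX, 1.61 CPM, and in ctxd18t, 3.995. In MRX, ctxd18t and combod18t the highest cluster was not apart from the next.

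**Figure D2:**
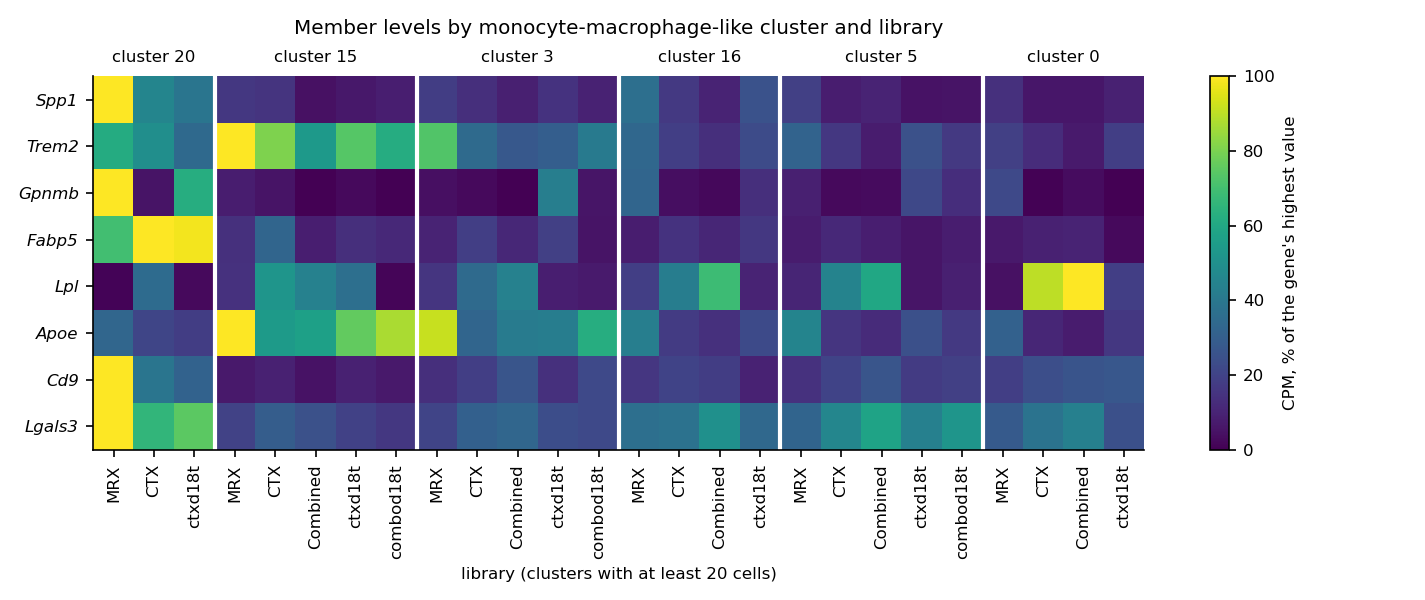
CPM of each member (rows) in the 6 monocyte-macrophage-like clusters by library (columns), coloured as a percentage of that gene's highest value, for clusters with at least 20 cells. Spp1, Fabp5, Cd9 and Lgals3 peaked in cluster 20, Trem2 and Apoe in cluster 15, and Lpl in cluster 0 of CTX and Combined.

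The states were present in very different proportions. Cluster 20 made up 18.3% of the monocyte-macrophage-like cells of ctxd18t (exact Clopper-Pearson interval 15.7 to 21.2), 5.68% for MRX (4.53 to 7.02), 1.28% for CTX (0.970 to 1.66), 1.48% for combod18t (0.404 to 3.74) and 0.333% for Combined (0.0907 to 0.849). It held 4 cells each in Combined and combod18t. Cluster 0 made up 45.8% of these cells in CTX and 60.2% in Combined but 5.08% to 5.97% in the other 3 libraries. A level over the whole class therefore moved with the mix of clusters, and ratios of members are also given with the same mix in both libraries.

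Few members were detected together in 1 cell. With cells thinned to 5000 UMIs, a monocyte-macrophage-like cell had a UMI of 2.70 to 3.23 members on average, and 0 cells had all 8. Even without thinning, Gpnmb was seen in 39 of 1408 cells of MRX, 31 of 4366 of CTX and 10 of 1203 of Combined. It was seen in 29 of 787 cells of ctxd18t and 4 of 271 of combod18t. With detection this low, the 0 cannot show whether the members lie in different cells. At least 5 members were seen in 12.1% of the MRX cells (interval 10.4 to 14.1), 10.8% of the CTX cells (9.86 to 11.8), 6.43% of the Combined cells (5.07 to 8.01), 12.1% of the ctxd18t cells (9.77 to 14.8) and 5.77% of the combod18t cells (3.02 to 9.86). In cluster 20 this share was 48.5% in MRX, 37.7% in CTX and 26.2% in ctxd18t. The other clusters had 1.15% to 20.7%.

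**Figure D3:**
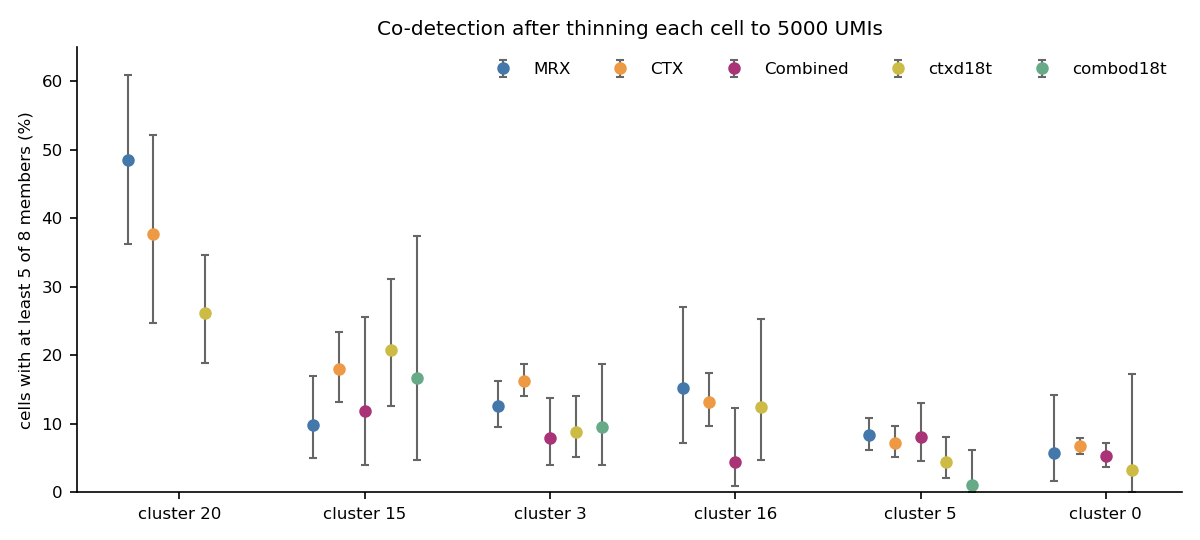
Percentage of cells with a UMI of at least 5 of the 8 members (y axis) by cluster (x axis) and library (colour), after thinning each cell to 5000 UMIs; bars are exact Clopper-Pearson intervals. Cluster 20 lay at 26.2% to 48.5%, above each other cluster of the same library; for ctxd18t its interval overlapped those of clusters 15 and 16.

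Over the whole monocyte-macrophage-like class, the levels of the secreted members Apoe, Spp1 and Lpl differed between libraries. Apoe was at 7353 CPM for MRX, 2426 for CTX, 1740.2 for Combined, 3979.7 for ctxd18t and 4799.8 for combod18t, so MRX was high and Combined low. Spp1 was at 813, 368, 262, 581 and 239 CPM in the same order, with MRX high and Combined and combod18t low. Lpl was at 19.99, 104, 139, 17.98 and 11.8 CPM, with CTX and Combined high.

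Of the surface members, Trem2 was at 181 CPM for MRX, 85.8 for CTX, 42.6 for Combined, 119.7 for ctxd18t and 107 for combod18t, with MRX high and Combined low. Gpnmb was at 6.66, 0.985, 1.22, 15.5 and 3.49 CPM, from 80, 50, 18, 177 and 11 counts, with MRX and ctxd18t high. Cd9 stayed within 66.3 to 89.7 CPM. Of the last pair, Fabp5 was at 119 CPM for MRX, 151 for CTX, 98.4 for Combined, 304 for ctxd18t and 74.6 for combod18t, with ctxd18t high, and Lgals3 stayed within 871 to 1248 CPM.

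**Figure D4:**
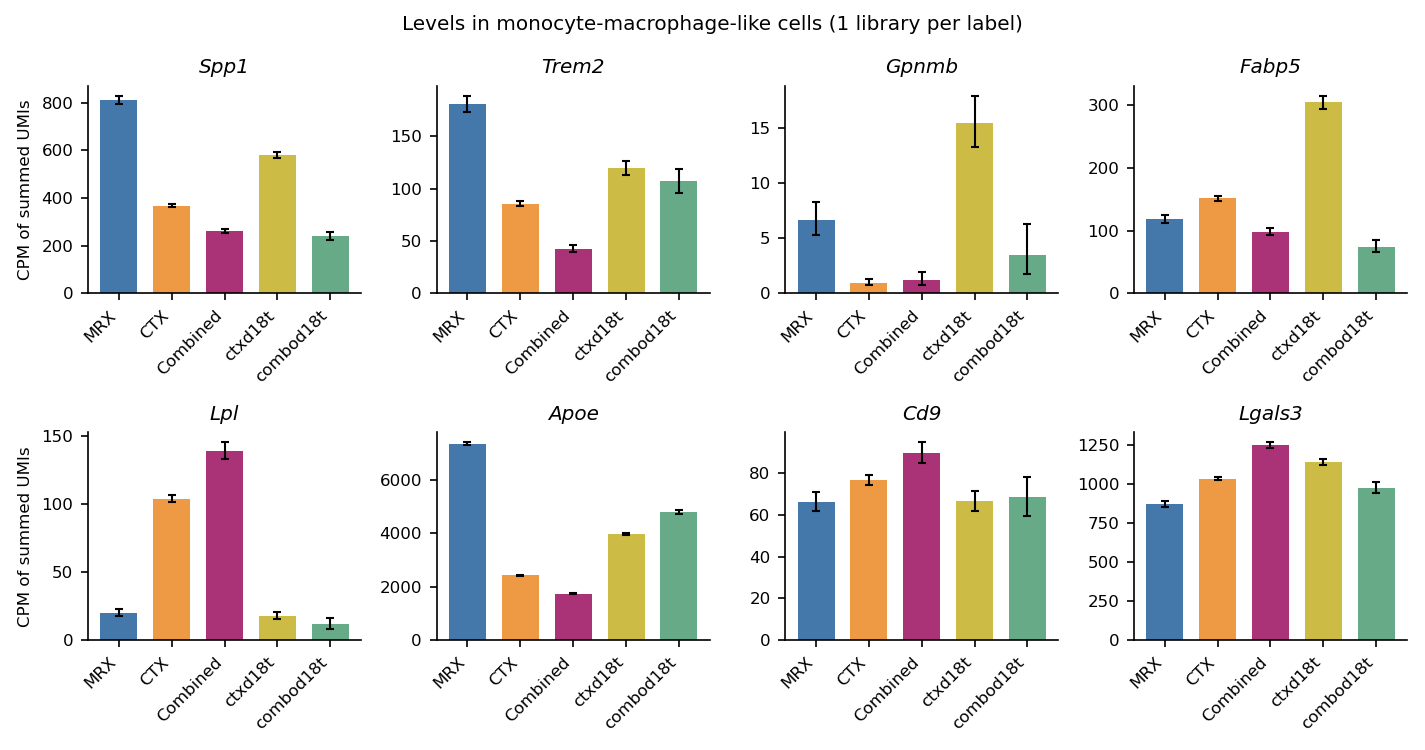
CPM of each member in monocyte-macrophage-like cells (y axis, from 0, with its own scale for each gene) by library; bars are 1 library each, and error bars are exact Poisson intervals. Apoe, Spp1 and Trem2 were highest in MRX, Lpl in CTX and Combined, and Fabp5 and Gpnmb in ctxd18t.

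The comparison of Combined with CTX bears on the pairing of MERTK inhibition with cyclophosphamide that the title names. Trem2 was lower in Combined, with 626 counts against 4353, a log2 ratio of CPM + 1 of -0.99 (interval -1.13 to -0.89). Spp1, Fabp5 and Apoe were lower by less, with log2 ratios of -0.49, -0.61 and -0.48, and Lpl, Cd9 and Lgals3 were higher, with 0.42, 0.22 and 0.27. These 7 intervals, which are of the ratio without the added 1, lay to the side of 0 of their value, and that of Gpnmb, at 0.16, covered 0. Of the 8 members, 0 were past 2-fold, called here at a log2 ratio of 1 in size; of all 8266 expressed genes 0.121% were higher and 0.363% lower by that much. The median of the members was -0.16, beside 0.07 over all expressed genes.

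Inside the 5 clusters that could be compared between Combined and CTX, Trem2 was lower in Combined in each, with log2 ratios from -1.03 in cluster 5 to -0.32 in cluster 3 and intervals below 0. Lpl was higher in 4 of the 5, and its interval covered 0 in cluster 15. Apoe went both ways, with a log2 ratio of 0.34 in cluster 3 and -0.46 in cluster 0. Spp1 went from -1.73 in cluster 15 to 0.30 in cluster 5. With the same mix of clusters in both libraries the log2 ratio was -0.60 for Trem2, -0.03 for Apoe, -0.28 for Spp1, -0.38 for Fabp5 and 0.21 for Lpl. With each library clustered separately the Fabp5 ratio turned to 0.10.

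The same contrast at day 18, combod18t against ctxd18t, had 3 of the 8 members lower by at least 2-fold and 0 higher; of all expressed genes 1.4% were lower and 0.544% higher. Gpnmb, 1 of the 3, counts as expressed only through its 15.5 CPM in ctxd18t, so its call is not set against that share. Fabp5 was lower with a log2 ratio of -2.01 (-2.22 to -1.83), Spp1 with -1.28 (-1.39 to -1.17) and Gpnmb with -1.87, on 11 against 177 counts. The Gpnmb counts lay in 4 cells of combod18t and 29 of ctxd18t, where 1 cell of cluster 3 held 52 of them. With cells thinned to 1000 UMIs the Gpnmb ratio was -0.86, short of 2-fold. Lpl and Lgals3 were lower by less, at -0.57 and -0.23. With the same mix of clusters Lpl was at -1.08, past 2-fold. Inside the clusters compared, the Lpl interval lay below 0 in cluster 15 only, with a log2 ratio of -4.16 on 1 against 96 counts. The Lpl interval covered 0 in clusters 3 and 5, where the ratios were -0.24 and 0.60. Apoe was higher, at 0.27 (0.24 to 0.30). The intervals of Trem2, at -0.16, and Cd9, at 0.04, covered 0. The median of the members was -0.40, beside 0.04 over all expressed genes.

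Cluster 20, where Spp1 and Fabp5 were highest, held 144 of 787 cells in ctxd18t and 4 of 271 in combod18t. Of 12 alternatives, 9 kept the day 18 ratio of Spp1 past 2-fold and 10 kept that of Fabp5. Without cluster 20 the log2 ratio was -0.59 for Spp1, -0.75 for Fabp5 and -1.43 for Gpnmb. The Gpnmb value rested on 2 cells of cluster 3 in ctxd18t: without them as well, an alternative chosen after seeing the data, it was -0.26, on 11 against 40 counts, with an interval that covered 0. With the same mix of clusters 3, 5 and 15 in both libraries the log2 ratio was -0.22 for Spp1, -0.62 for Fabp5 and -1.51 for Gpnmb. These clusters, without cluster 20, held 90.4% of the class in combod18t and 70.5% in ctxd18t. Inside these clusters the signs differed. Fabp5 had a log2 ratio of -1.77 (-2.20 to -1.39) in cluster 3, past 2-fold, and 0.44 (0.07 to 0.80) in cluster 5, and its interval covered 0 in cluster 15. Spp1 had -0.62 in cluster 3 and 0.40 in cluster 15, and its interval covered 0 in cluster 5. Apoe had 0.56 in cluster 3 and 0.20 in cluster 15 but -0.55 (-0.62 to -0.49) in cluster 5, and Trem2 had 0.45 in cluster 3 and -0.56 in cluster 5. Epithelial markers in cluster 20 of ctxd18t summed to 105 CPM, against 14.4 and 19.3 in CTX and MRX; their part in the result was not tested. The Lgals3 ratio turned to 0.15 without cluster 20, and that of Cd9 went from 0.04 to 0.33. Read with the labels exchanged, these ratios would keep their size and turn their sign.

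CTX and Combined were also set against MRX. In CTX, Lpl was higher than in MRX by a log2 ratio of 2.32 (2.19 to 2.57), and Apoe, Spp1, Trem2 and Gpnmb were lower, at -1.60, -1.14, -1.07 and -1.95. That made 1 member higher and 4 lower by at least 2-fold, where 1.77% and 1.28% of all expressed genes were. Fabp5, Cd9 and Lgals3 were higher by 0.34, 0.21 and 0.25 on the log2 scale. In cluster 20 Cd9 and Lgals3 went the other way, at -1.35 and -0.60 with intervals below 0, and with the mean of cell CPM the Fabp5 ratio was -0.06. The median of the members was -0.43, beside 0.01 over all expressed genes. Apoe was lower and Lpl and Fabp5 were higher in CTX in each of the 6 clusters. With the same mix of clusters the log2 ratios of Spp1 and Trem2 were -0.88 and -0.78, short of 2-fold.

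In Combined, the same 5 members were past 2-fold against MRX: Lpl at 2.74 (2.61 to 3.00), Apoe at -2.08, Trem2 at -2.06, Spp1 at -1.63 and Gpnmb at -1.78. With 10 CPM added the Gpnmb ratio was short of 2-fold, at -0.57 here and -0.60 in CTX against MRX. Of all expressed genes 2.67% were higher and 2.83% lower by that much. The median of the members was -0.95, beside 0.08 over all expressed genes. With the same mix of clusters all 5 stayed past 2-fold, at 2.68, -1.39, -1.39, -1.15 and -1.88. Within the 5 clusters compared, Spp1, Trem2 and Apoe were lower and Lpl and Lgals3 higher in each. These comparisons share the CTX, Combined and MRX libraries, so they are not independent of each other. The interval of Gpnmb lies below its log2 ratio in CTX against MRX, because the added 1 CPM pulls the ratio of a gene this low toward 0.

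**Figure D5:**
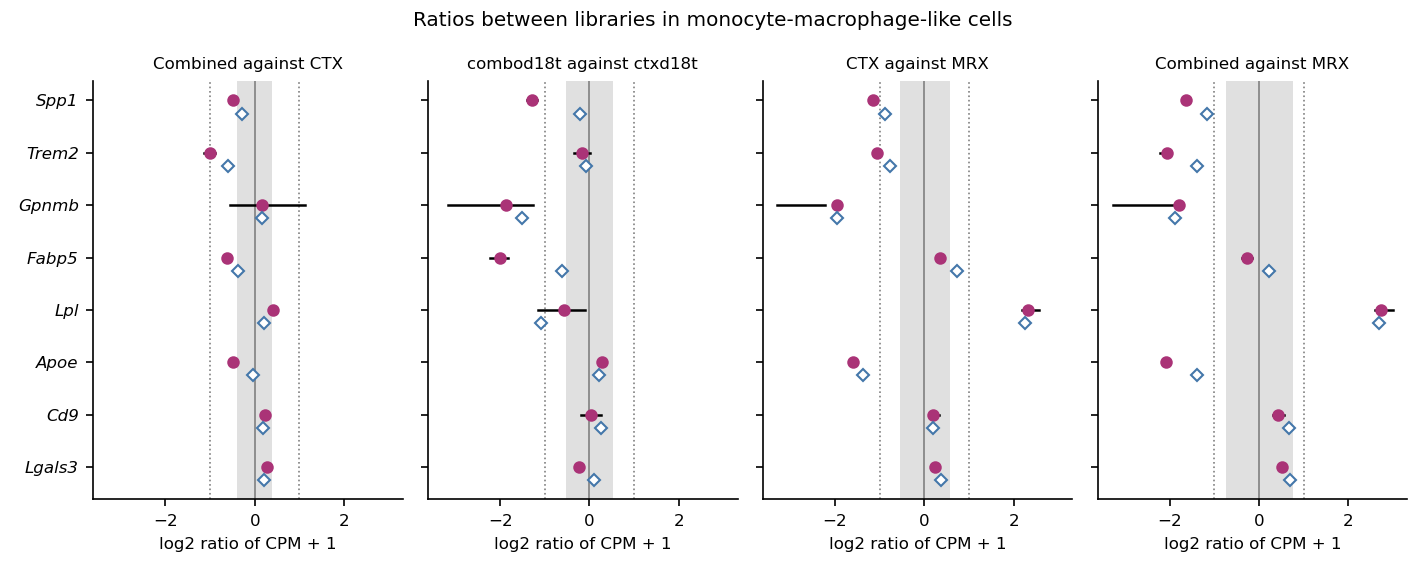
Log2 ratio of CPM + 1 (x axis) of each member (y axis) in monocyte-macrophage-like cells for 4 comparisons. Filled points are the ratios and lines their exact binomial intervals without the added 1. Open diamonds are the ratios with the same mix of clusters, at day 18 of clusters 3, 5 and 15 only. Grey bands are the 5th to 95th percentile of all expressed genes and dotted lines 2-fold. The day 18 ratio of Spp1 goes from -1.28 to -0.22 between point and diamond.

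Other genes of the members' pathways were counted over 9 lists, beside medians of 0.01 to 0.08 over all expressed genes in the 4 comparisons. Between 0.121% and 2.83% of all expressed genes were past 2-fold in 1 direction, so that a count of 0 in lists of 4 to 13 tested genes is near the background. List genes were compared over the whole class only, and cluster 3, which has Itga9, Itgb5 and Cd63 among its leading genes, made up 31.3% of it in MRX, 25.1% in CTX and 12.5% in Combined. Of 10 TREM2 signalling genes, among them Tyrobp and Syk, 10 passed the filter and 0 were past 2-fold in any of the 4 comparisons, with medians of -0.18 to 0.08. In the list of cholesterol efflux, whose master regulators are the LXR factors, 11 of 11 genes passed and the neighbours of Apoe on its chromosome, Apoc1 and Apoc2, were lower than in MRX: Apoc2 by a log2 ratio of -1.24 in CTX and -1.98 in Combined, Apoc1 by -1.22 and -1.44. The other 9 genes of that list, Abca1 and Abcg1 included, were short of 2-fold in each comparison, and the list's median was -0.22 in Combined against CTX and -0.30 in Combined against MRX.

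Of 16 lipid uptake and storage genes, 13 passed the filter, with medians of -0.19 to 0.03. Pparg, a nuclear receptor for fatty acids, was lower in Combined than in CTX (-1.03) and MRX (-1.57) and in combod18t than in ctxd18t (-1.60). Hilpda, a droplet protein named here after its value was seen, was also lower at day 18 (-1.10). The scavenger receptor gene Cd36 was higher in CTX than in MRX (1.54), and the lipoprotein receptor gene Lrp1 lower in Combined than in MRX (-1.10). Of the lysosome list, 13 of 15 genes passed and Cd63, a tetraspanin of late endosomes, was past 2-fold, at -1.10 in Combined against MRX; the list's medians were -0.21 to 0.10. Of 12 sterol synthesis genes 9 passed, with medians of -0.44 to 0.29. The lipase partner list had 4 of 9 genes that passed and 0 past 2-fold, with medians of -0.03 to 0.30.

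Among 9 osteopontin receptor genes 8 passed. The integrin genes Itgb5 and Itga9, which were leading genes of cluster 3, were lower in Combined than in MRX, at -1.54 and -1.51. Itgb5 was also lower in CTX than in MRX, at -1.04. The median of the 8 was -0.15 in Combined against MRX, beside 0.08 over all expressed genes. Over the comparisons it ran from -0.31 in CTX against MRX to 0.26 in Combined against CTX. Of 11 tetraspanin and galectin genes 10 passed, and Cd81 was lower in Combined than in MRX, at -1.25; the medians were -0.10 to 0.00. Of 10 further genes known from lipid-associated macrophages 9 passed, with medians of -0.23 to 0.19. Clec7a, the beta-glucan receptor Dectin-1, was higher than in MRX in CTX (1.30) and Combined (1.16), Capg was higher in Combined (1.23), and Mmp12, a macrophage elastase, was higher in CTX than in MRX (1.14) and lower in Combined than in CTX (-1.11, interval -1.41 to -0.94).

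Across 24 units of a monocyte-macrophage-like cluster in a library with at least 50 cells, Trem2 and Apoe had a Pearson correlation of log2(CPM + 1) of 0.88, Cd9 and Lgals3 0.82 and Spp1 and Fabp5 0.71. Apoe and Lgals3 had -0.72, and Gpnmb and Lpl -0.64. Units of 1 library share its depth and batch, and units of 1 cluster share its cells' definition, so these values are descriptions. The genes most like each member over the same units were Cx3cr1, Rnase4 and Abhd12 for Apoe, Rnase4, Dhrs3 and Plod1 for Trem2, and Pkm, Adam8 and Eno1 for Lgals3, with correlations of 0.89 to 0.96. For Lpl they were Ndufs3, Psmb3 and Cyc1, for Fabp5 Eif4ebp1 and Vdac1, for Spp1 Malat1, Basp1 and Hilpda, for Cd9 Gm15283, P4hb and Pkm, and for Gpnmb Osbpl8, Fn1 and Hsph1, with 0.78 to 0.93.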

How the data were processed

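Each of 5 libraries came as a matrix of UMI counts per gene and cell, whole numbers as deposited and not normalised; the submitters' processing notes name Cell Ranger 9.0.1, Seurat 5.2.0 and build GRCm39, and their settings are not given in the sources used here. The members and the gene lists were chosen with earlier results of these data known. Cells with at least 200 genes and at most 15% mitochondrial counts were kept. Scrublet (scanpy 1.11.5) marked under 0.5% of each library by its own threshold, so the top 5% by score, less ties, were removed. The 2000 most variable genes, without members, list genes, cell cycle, mitochondrial, ribosomal, haemoglobin and receptor segment genes, gave 30 components. A graph of 15 neighbours was clustered with leidenalg 0.10.2 at resolution 1, without integration.

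A cluster took the class of its 5 best markers and needed 3 markers seen in 10% of its cells. A cluster with a runner-up class at 0.5 times the best score and over 1.5 times its libraries' median UMIs was called mixed and left out (clusters 13 and 19); these scoring rules were set after seeing the data. A state name needed 2 of its markers among the 10 leading genes. Levels are CPM with exact Poisson intervals, for classes or clusters of at least 20 cells. Ratios add 1 CPM; their exact conditional binomial intervals do not. Expressed genes had 100 counts over the libraries and 10 CPM in at least 1, which all 8 members passed; list genes named were at most 3 per list, past 2-fold on 100 counts, largest first; some genes that these rules name are not reported here. The ratio step was tested on simulated counts for Combined against CTX (8266 genes, 200 changed): 100% kept their direction, and 95.0% of intervals held the true value. The simulated counts had counting error only, as the intervals assume. The test therefore checks the computation and not the spread between cells or libraries. Alternatives covered scaling, the added CPM, depth, cell weights, filters, doublets and clustering.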

Additional observations from a re-analysis of the deposited data

Results flagged for a closer look

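Lpl, Apoe and Lgals3 went opposite ways in the 2 comparisons of a combined with a CTX label; with 1 library each, the difference was not tested. The log2 ratio of Lpl was 0.42 for Combined over CTX and -0.57 for combod18t over ctxd18t, a gap of 0.99. For Apoe the values were -0.48 and 0.27, a gap of -0.75, and for Lgals3 0.27 and -0.23, a gap of 0.50. Spp1 and Fabp5 were lower in both comparisons, and Trem2 had -0.99 and -0.16, the latter with an interval that covered 0. With the day 18 labels exchanged, the day 18 signs would turn: Lpl, Apoe and Lgals3 would then go the same way in both comparisons, and Spp1 and Fabp5 opposite ways. Under the alternatives run, the day 18 value of Lgals3 turned to 0.15 without cluster 20 and to 0.10 with the same mix of clusters. The Apoe value of Combined over CTX was -0.03 with the same mix. The day 18 value of Lpl was -1.08 with the same mix, but its interval lay below 0 in cluster 15 only, on 1 against 96 counts. In clusters 3 and 5 the Lpl ratio was -0.24 and 0.60, with intervals that covered 0.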

How the results depend on the processing

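No paired analysis was possible because each label has 1 library, and for the same reason no replicate could be left out. Against MRX, 7 of the 8 members kept their sign under all 12 alternatives in both comparisons; Fabp5 turned to -0.06 in CTX with the mean of cell CPM, and in Combined from -0.27 to 0.42 with libraries clustered separately, 0.21 with the same mix and 0.15 without cluster 20. For Combined against CTX, the median log2 ratio of the members was -0.16; it reversed to 0.11 with libraries clustered separately and to 0.069 with the same mix of clusters, and was -0.055 with the mean of cell CPM. There 1 member, Trem2, was past 2-fold in place of 0 with median-of-ratios scaling, with at least 500 genes per cell, with mixed clusters kept and with the members used in clustering. Without cluster 20, an alternative chosen after seeing the data, 1 member, Gpnmb, was past 2-fold at day 18 in place of 3, and its ratio was -0.26 when 2 cells of cluster 3 were left out as well. For CTX against MRX the median of -0.43 became -0.21 with 10 CPM added, -0.57 with cells thinned to 1000 UMIs, -0.62 with the mean of cell CPM, -0.29 with the same mix and -0.25 without cluster 20, and the count of 5 fell to 3 with 10 CPM added and with the same mix. For Combined against MRX the median of -0.95 became -0.41, -1.14 and -0.47 with 10 CPM added, thinned cells and the same mix, -0.63 with libraries clustered separately and -0.56 without cluster 20. The cause of these shifts was not tested. With no filter on low genes, 18 genes were higher and 51 lower by 2-fold in Combined than in CTX, in place of 10 and 30, but their shares fell to 0.0851% and 0.241% of 21160 genes; there were 233 and 335 at day 18, in place of 45 and 116, with shares that rose to 1.25% and 1.8%. Against MRX, 193 were higher and 174 lower in CTX, in place of 146 and 106, and 296 and 376 in Combined, in place of 221 and 234; these shares fell to 0.914%, 0.824%, 1.52% and 1.93%. With the members and lists used in clustering, Apoe was highest in each library in a C1q-led cluster, of which cluster 3 cells made up 61.2% to 73.1%. Trem2 was highest in the same cluster in all libraries but CTX. There 21 cells with Hspa1a and Mrc1 among their leading genes had 183 CPM of Trem2. At resolution 2, Lgals3 in CTX was highest in 27 cells of cluster 5, at 1905 CPM. The day 18 ratio of Trem2 turned to 0.43 with thinned cells. Depth limits Gpnmb most, with 11 to 177 counts per library, and combod18t, with 271 cells of the class.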

Other observations

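Fabp5 was also high in small groups of cells outside the macrophages. An unnamed cluster led by Fgf4, Ccnd1 and Igf2, with few UMIs per cell, had 13949 CPM in CTX, from 29 cells, and 5626 in ctxd18t, from 78 cells; Fabp5 itself was among its leading genes. A conventional dendritic-like cluster led by Fscn1 and Il12b had 1598 CPM in CTX, from 36 cells, and 551 in ctxd18t, from 31 cells. In a T-like cluster led by Il1rl1, Il2ra and Foxp3, the last the defining factor of regulatory T cells, Fabp5 was at 242 CPM for MRX, 433 for CTX, 401 for Combined, 176 for ctxd18t and 70.3 for combod18t.

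At resolution 2 a group of cells led by Adgre4, Ace and Treml4, genes of patrolling monocytes, had the highest Cd9 level of the monocyte-macrophage-like clusters in CTX, 171 CPM in 103 cells, and in Combined, 255 CPM in 22 cells; most of these cells belonged to cluster 5. In combod18t, 44 cells led by Hbb-bs, Hba-a1 and Hba-a2, the haemoglobin genes, had the highest Spp1 level, 601 CPM, and the highest Fabp5 level, 290.3 CPM; 97.7% of them belonged to cluster 15.

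The mixed clusters, left out of the class, held member counts too. In cluster 13, led by C1qa and Ms4a7, Apoe ran from 1903 CPM in Combined to 6093 in MRX, and T cell markers summed to 1394 to 2418 CPM. In cluster 19, led by Klk1, Ccr9 and Siglech, Lpl was at 102 CPM in ctxd18t, from 83 counts in 31 cells with a median of 23121 UMIs, above the 17.98 CPM of the monocyte-macrophage-like class there; in CTX and Combined it was at 63.98 and 80.05 CPM, below the 104 and 139 of the class.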
